A study of Mus musculus with 8 samples.

Results

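The genes of glycogen metabolism were examined in cultures of mouse calvarial osteoblasts, the bone-forming cells of the skullcap, treated with parathyroid hormone (PTH) or vehicle. They are 9 genes chosen by symbol, and all 9 were found among the 47706 rows of the count table, each in a single row. They encode the primer, the synthase and the branching enzyme that build glycogen (Gyg, Gys1 and Gbe1), the phosphorylase isoenzymes that release glucose from it (Pygb, Pygl and Pygm), and 3 regulatory subunits that bring protein phosphatase 1 to the glycogen particle (Ppp1r3b, Ppp1r3c and Ppp1r3d). The cells were isolated from neonatal mice, kept in differentiation medium for 7 days, serum-starved and given PTH or vehicle for 24 hours, with 4 samples in each group. Sample titles begin with "Con", which the labels do not explain, and the strain of these mice was not given in the sources used here. The labels name an adipogenic differentiation where the study's methods describe an osteogenic medium. Nothing in the labels says whether the 4 samples of a group came from separate animals. The p-values therefore set the difference between treatments against a spread between these samples that may be technical.

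Glycogen is a branched polymer of glucose. Glycogenin starts each particle by adding glucose to itself, glycogen synthase extends the chains, and the branching enzyme adds branch points. Glycogen phosphorylase cuts glucose units from the chain ends. Phosphorylation switches the synthase off and the phosphorylase on. In many tissues, hormones that raise cyclic AMP act on this balance through protein kinase A and phosphorylase kinase, and the PTH receptor is coupled to the same messenger. Protein phosphatase 1 reverses both phosphorylations, and the Ppp1r3 subunits carry it to glycogen.

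Total counts lay between 33605610 and 56090654 per sample, and 16736 of the 47706 rows had enough counts to be tested. All 9 members passed this filter. The label check genes moved with the treatment: Tnfsf11, which encodes RANKL, had 1.42 ± 0.365 CPM (counts scaled to the TMM-normalized library size) with vehicle and 128 ± 20.01 CPM with PTH (mean ± SD, n = 4), and Pth1r, the PTH receptor gene, was downregulated by a log2 fold change of -0.70. Osteoblast markers summed to between 92880 and 105348 CPM with vehicle and to between 86874 and 125506 CPM with PTH. Most of this sum came from Col1a1, Col1a2 and Sparc (means of 44361, 35071 and 16750 CPM with vehicle). Of the 11 markers, 3 were downregulated: Runx2 (log2 fold change -0.33), Sp7 (-1.78) and Dmp1 (-1.12). Macrophage markers summed to between 1070 and 1739 CPM with vehicle and to between 1670 and 2136 CPM with PTH. Most of this came from Lyz2 (means of 914 CPM with vehicle and 1417 CPM with PTH). Of these 10 markers, Lyz2 and Cd14 were upregulated, none was downregulated and none was at 0 in all samples. All 10 had a positive log2 fold change, from 0.19 to 0.63 with a median of 0.31, and 8 did not pass the test. Sums for the other marker lists lay between 39.8 and 55.5 CPM with vehicle and 34.8 and 54.9 CPM with PTH for 8 adipocyte genes, of which Pparg was downregulated. For 10 skeletal muscle genes they lay between 8.14 and 12.9 CPM and between 8.87 and 12.2 CPM, with Myh3 upregulated and Acta1 downregulated. For 5 endothelial genes, of which Emcn had no count in any sample, they lay between 6.15 and 6.97 CPM and between 5.66 and 6.97 CPM, with Kdr upregulated and Tek downregulated. By the test described below, 45.8% of all tested genes changed in either direction. Among tested markers the share was 27.3% for osteoblast, 20% for macrophage, 14.3% for adipocyte, 33.3% for skeletal muscle and 50% for endothelial genes. In RNA from whole cultures, fewer cells of a type and less RNA per cell cannot be told apart, and the part of these cell types in the results below was not tested.

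The promoters of 3 members are shown because these genes moved far or were abundant: Ppp1r3c had the largest rise of the 9, Ppp1r3d the largest fall, and Pygb the highest level. They come from RefSeq on GRCm38.p6 and stop before the first base annotated as transcribed by RefSeq or GENCODE. Ppp1r3c lies on chr19:36736654-36736854 (minus strand), Ppp1r3d on chr2:178414473-178414713 (minus strand) and Pygb on chr2:150786546-150786734 (plus strand). Capitals mark the half-site of the cyclic AMP response element (TGACG, or CGTCA on the other strand) and the E-box CACGTG, and in Ppp1r3d the E-box and the first half-site share bases.
Ppp1r3c: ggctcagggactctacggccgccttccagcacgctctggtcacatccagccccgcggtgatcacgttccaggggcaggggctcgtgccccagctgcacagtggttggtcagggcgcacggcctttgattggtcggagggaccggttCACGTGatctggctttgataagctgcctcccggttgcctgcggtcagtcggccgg
Ppp1r3d: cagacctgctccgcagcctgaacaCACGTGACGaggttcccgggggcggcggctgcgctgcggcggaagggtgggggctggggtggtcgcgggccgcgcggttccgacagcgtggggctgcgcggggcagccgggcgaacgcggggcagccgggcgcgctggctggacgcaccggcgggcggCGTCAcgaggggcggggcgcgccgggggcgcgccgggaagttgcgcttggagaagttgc
Pygb: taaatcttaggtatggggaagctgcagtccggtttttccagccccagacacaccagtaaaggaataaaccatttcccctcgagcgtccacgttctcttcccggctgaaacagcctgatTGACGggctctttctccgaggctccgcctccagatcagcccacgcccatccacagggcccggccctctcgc
RefSeq promoters were matched for 8 of the 9 members, and the promoter of Ppp1r3b was not among them. The 250 bases before the RefSeq start held the half-site in 3 of the 8 (Pygb, Pygl and Ppp1r3d), against 17.8% of 32851 promoters. They held the E-box in 2 of the 8 (Ppp1r3c and Ppp1r3d), against 6.02% of all promoters. The full element TGACGTCA, which was searched on both strands and contains the half-site, was in none of the 8 and in 1.55% of all promoters. Such matches are letters in a window and were not tested for binding. For Pygl the RefSeq start lies 3805 bases inside the gene as annotated by GENCODE, so that its window is within that gene. For Gyg it lies 201 bases inside, so that most of its window is within the gene. The half-site was thus found before the RefSeq start of 1 gene that rose, 1 that fell and 1 that did not pass the test. The E-box was found before 1 that rose and 1 that fell.

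Over all tested genes, 45.8% differed between PTH and vehicle by edgeR's quasi-likelihood test at an adjusted p under 0.05 (Benjamini-Hochberg over 16736 genes), with 23.3% higher and 22.5% lower with PTH. Of the 9 glycogen metabolism genes, 6 differed: Ppp1r3c and Pygb were upregulated, and Gyg, Gys1, Ppp1r3b and Ppp1r3d were downregulated. Gbe1, Pygl and Pygm did not pass the test. The median log2 fold change of the 9 genes was -0.24, and over all tested genes it was -0.00081. In absolute size the medians were 0.53 for the 9 genes and 0.35 for all tested genes. Samples of the treatments did not overlap for 7 of the 9 genes, against 43.0% of all tested genes. All log2 fold changes below are PTH over vehicle from the same edgeR fit, with their standard errors (SE) and with adjusted p-values over all tested genes.

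The targeting subunits showed the largest changes, and in opposite directions. Ppp1r3c encodes the subunit known as protein targeting to glycogen (PTG), which binds the phosphatase, glycogen and glycogen enzymes and is known to favor glycogen storage. The gene lies on chromosome 19 from 36731731 to 36736653 on the minus strand (GENCODE M21, GRCm38). In the 4 vehicle samples it had 12.7, 15.02, 13.9 and 14.2 CPM, and in the 4 PTH samples 56.8, 80.3, 76.2 and 55.4 CPM. Every PTH sample was thus far above every vehicle sample, while PTH samples 2 and 3 were higher than PTH samples 1 and 4, and the coefficient of variation was 19.2% with PTH and 6.80% with vehicle. PTH increased Ppp1r3c by 4.81-fold, a log2 fold change of 2.27 (SE 0.126, with an adjusted p of 3.26e-08). Of all tested genes, 97.2% had a smaller absolute change.

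Ppp1r3b, on chromosome 8 from 35375739 to 35388139, encodes the subunit called GL, best known from the liver, whose binding to phosphorylase couples the state of that enzyme to synthase activation. It was the most abundant targeting subunit with vehicle, at 74.2, 73.3, 71.5 and 61.0 CPM, and had 41.2, 33.6, 33.2 and 35.8 CPM with PTH. The highest PTH sample was below the lowest vehicle sample. The log2 fold change was -0.96 (SE 0.0886, with an adjusted p of 3.13e-06), or 1.94-fold lower with PTH. A noncoding gene is annotated on the opposite strand across part of Ppp1r3b and was not analysed here.

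Ppp1r3d, on chromosome 2 from 178411206 to 178414472, encodes a further targeting subunit, known as R6 and expressed in many tissues. Its level was 7.92, 8.40, 9.05 and 8.33 CPM with vehicle and 2.97, 3.25, 1.96 and 2.78 CPM with PTH, again without overlap. It fell by 1.62 on the log2 scale (SE 0.159, with an adjusted p of 5.39e-06), which is 3.08-fold lower with PTH. These values rest on 355 to 434 counts per vehicle sample and 75 to 152 per PTH sample. The E-box and half-sites printed above for this gene stand beside a fall, and the E-box of Ppp1r3c beside a rise.

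**Figure D1:**
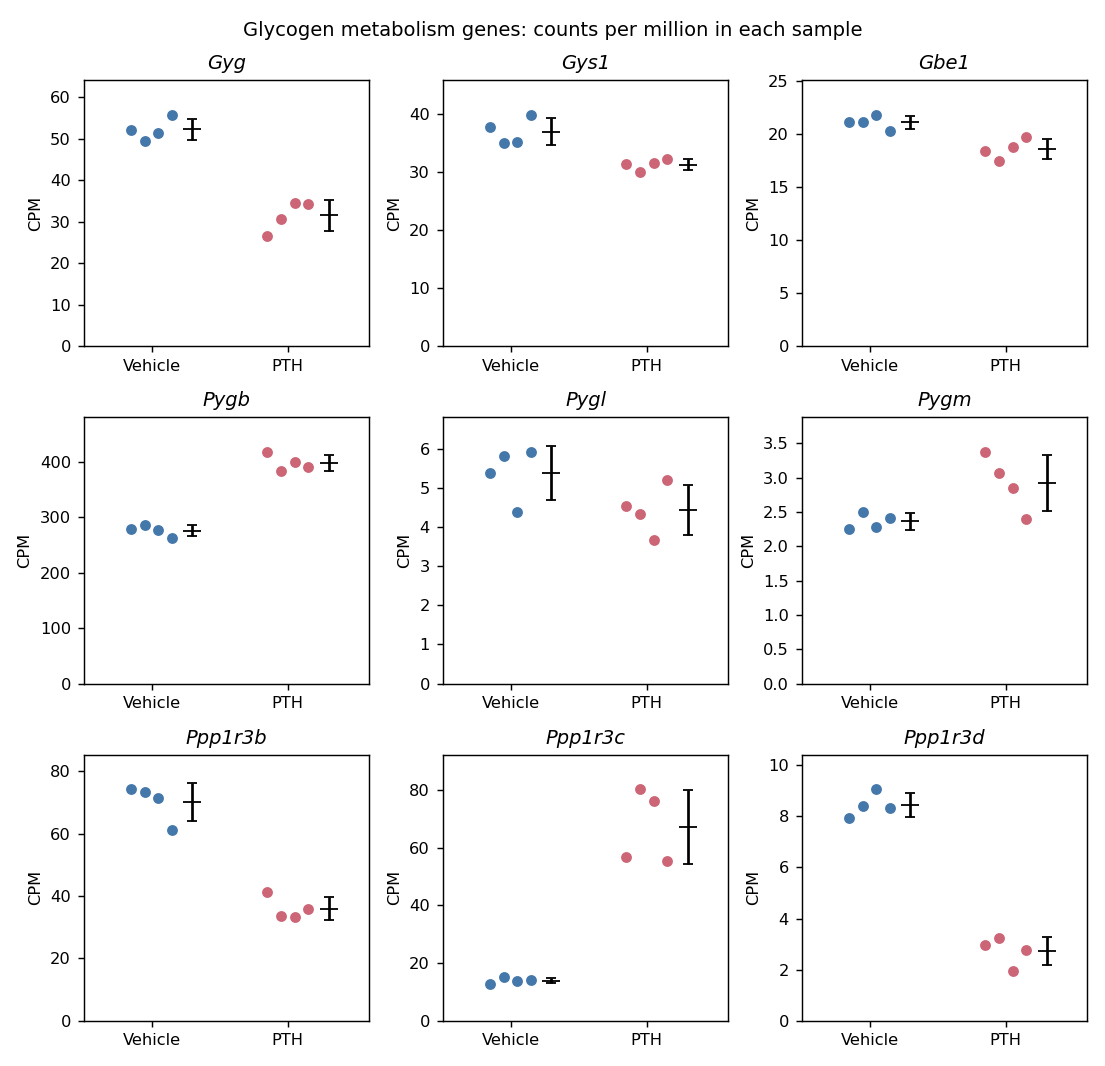
CPM (vertical axes, each starting at 0) of the 9 glycogen metabolism genes in the 4 vehicle (blue) and 4 PTH (red) samples, in order of sample number, with the mean and SD in black. Ppp1r3c is higher in all 4 PTH samples, Ppp1r3b and Ppp1r3d are lower in all 4, and the treatments overlap for Pygl and Pygm.

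Levels of different genes were compared only as CPM per kilobase of the longest annotated coding transcript, with no test. On this scale the 3 subunits together had 23.7 ± 1.38 with vehicle and 33.7 ± 4.12 with PTH. With vehicle, Ppp1r3b made up 67.4% ± 2.54, Ppp1r3c 21.7% ± 1.91 and Ppp1r3d 10.9% ± 0.815 of that sum. With PTH, the shares were 24.8% ± 4.996 for Ppp1r3b, 72.7% ± 5.42 for Ppp1r3c and 2.52% ± 0.591 for Ppp1r3d (mean ± SD, n = 4). The leading subunit was therefore Ppp1r3b in each vehicle sample (64.2% to 70.5%) and Ppp1r3c in each PTH sample (66.9% to 77.4%). The ratio of Ppp1r3c to Ppp1r3b per kilobase was 0.276, 0.330, 0.313 and 0.373 with vehicle and 2.22, 3.84, 3.69 and 2.49 with PTH.

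Other targeting subunits were taken from a list of 27 further genes of the pathway. Ppp1r3g, whose product is a glycogen-targeting subunit described in liver, had 6, 0, 0 and 11 counts in the vehicle samples and 158, 85, 75 and 124 counts in the PTH samples. A count of 0 in vehicle samples 2 and 3 allows up to 3 counts, or 0.0689 and 0.0626 CPM. Its mean was 0.0889 ± 0.109 CPM with vehicle and 2.64 ± 0.504 CPM with PTH, and it was upregulated (adjusted p = 7.44e-05, log2 fold change 4.82, SE 0.645). It had enough counts to be tested only through the PTH samples, where it is high, so that the call is a description. The size of the fold rests on few vehicle counts, and the fitted log2 fold change was between 4.41 and 5.81 with 1 sample left out, the highest without vehicle sample 4. Ppp1r3e was downregulated, from 4.59 ± 0.673 to 2.83 ± 0.364 CPM (adjusted p = 0.00534, log2 fold change -0.70, SE 0.171). Ppp1r3f did not pass the test (adjusted p = 0.955, log2 fold change 0.03, SE 0.392), shares its assembled locus with Ccdc22 and Gm36995, and had 37 counts in vehicle sample 3 where the other vehicle samples had at least 136. The muscle subunit gene Ppp1r3a had 3 counts in 1 sample and none in the other 7 and was not tested. Among the 6 subunits with enough counts, Ppp1r3c took 19.3% ± 1.447 of the summed level per kilobase with vehicle and 66.5% ± 5.64 with PTH, while Ppp1r3g reached 3.06% ± 0.856 with PTH.

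**Figure D2:**
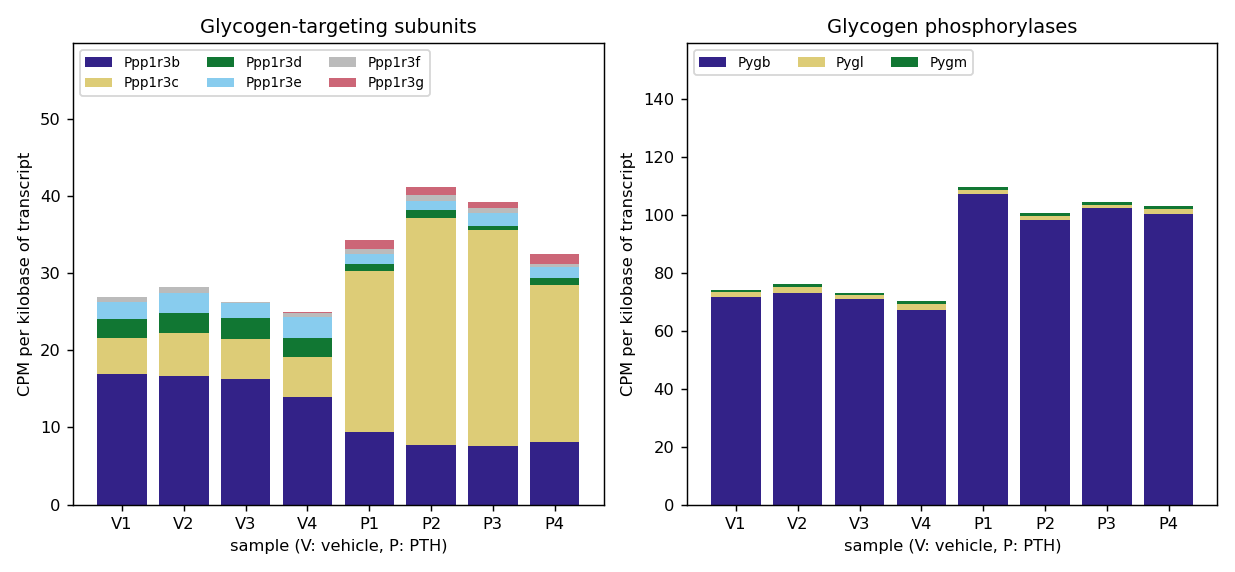
Summed CPM per kilobase of the longest coding transcript (vertical axes) in each vehicle (V1 to V4) and PTH (P1 to P4) sample, stacked by gene, for 6 glycogen-targeting subunits on the left and the 3 phosphorylases on the right. The largest block on the left is Ppp1r3b in every vehicle sample and Ppp1r3c in every PTH sample, and Pygb fills between 96.0% and 97.9% of each bar on the right.

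The genes that build glycogen were lower or did not pass the test. Gyg encodes glycogenin and lies on chromosome 3 from 20122084 to 20155317. It had 52.1, 49.5, 51.4 and 55.8 CPM with vehicle and 26.7, 30.8, 34.6 and 34.3 CPM with PTH. No PTH sample reached the level of any vehicle sample, and PTH sample 1 was the lowest. The log2 fold change was -0.73 (SE 0.0874, with an adjusted p of 3.16e-05), or 1.65-fold lower with PTH.

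Gys1, the glycogen synthase of muscle and most other tissues, lies on chromosome 7 from 45434844 to 45456619. Its level was 37.8, 35.1, 35.2 and 39.9 CPM with vehicle and 31.5, 30.1, 31.5 and 32.3 CPM with PTH. The groups did not overlap, but the gap between them was small, and the log2 fold change was -0.24 (SE 0.0680, with an adjusted p of 0.0123). An offset for transcript length ended this call (adjusted p = 0.0729, log2 fold change -0.16). Ruvbl2 is annotated across part of Gys1 on the opposite strand, shares up to 290 bases with it and was itself downregulated (adjusted p = 0.0243, log2 fold change -0.34). The strand setting of the counts was not given in the sources used here, so that reads of this pair cannot be told apart where they overlap.

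Gbe1, the branching enzyme gene on chromosome 16 from 70313949 to 70569716, had 21.2, 21.2, 21.9 and 20.3 CPM with vehicle and 18.4, 17.5, 18.8 and 19.8 CPM with PTH. The lowest vehicle sample was just above the highest PTH sample. The difference missed the threshold over all genes (adjusted p = 0.0608, log2 fold change -0.18, SE 0.0731). The exact permutation test of this gene alone, two-sided on log2(CPM + 0.1), gave p = 0.0286, the smallest that 4 samples against 4 allow. Every gene without overlap between the treatments gets this value, so that it adds nothing to the lack of overlap. Such a lack was seen for 43.0% of all tested genes. The synthase of liver, Gys2, had at most 8 counts in any sample and was not tested.

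Among the phosphorylases, Pygb, Pygl and Pygm are named for the brain, liver and muscle isoenzymes. Pygb, on chromosome 2 from 150786735 to 150831758, was by far the most abundant of them and the only one that changed at the threshold. Its level was 279, 286, 277 and 263 CPM with vehicle and 418, 383, 399 and 392 CPM with PTH. The lowest PTH sample was well above the highest vehicle sample, and the spread within each group was small (coefficients of variation 3.48% and 3.73%). PTH increased Pygb by 1.44-fold (adjusted p = 2.73e-05, log2 fold change 0.53, SE 0.0624).

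Pygl, on chromosome 12 from 70190811 to 70231488, had 5.38, 5.83, 4.402 and 5.93 CPM with vehicle and 4.55, 4.33, 3.68 and 5.21 CPM with PTH. The samples of the treatments overlapped, and the log2 fold change of -0.28 (SE 0.156, with an adjusted p of 0.170) did not pass the test. A noncoding gene, F730035M05Rik, is annotated on the strand opposite Pygl, had 5 counts in 1 sample and none in the other 7, and was not tested. Pygm, on chromosome 19 from 6384399 to 6398459, had 2.25, 2.50, 2.27 and 2.42 CPM with vehicle and 3.37, 3.07, 2.85 and 2.40 CPM with PTH. PTH samples 1, 2 and 3 were above all vehicle samples and PTH sample 4 was not, and the log2 fold change of 0.31 (SE 0.179, with an adjusted p of 0.185) did not pass either. Pygl had 141 to 294 counts and Pygm 101 to 173 counts per sample. Whether the change of Pygb differed from that of Pygl or Pygm was not tested.

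Per kilobase, Pygb made up between 96.0% and 96.9% of the 3 phosphorylases in vehicle samples and between 97.5% and 97.9% in PTH samples. The share of Pygl was 2.46% ± 0.340 with vehicle and 1.42% ± 0.211 with PTH, and that of Pygm was 1.12% ± 0.0645 and 0.973% ± 0.121. The summed phosphorylase level was 73.3 ± 2.44 CPM per kilobase with vehicle and 104 ± 3.87 with PTH. Set against Gys1, this gave ratios of 7.20, 7.95, 7.64 and 6.45 with vehicle and of 12.8, 12.3, 12.2 and 11.7 with PTH. Phosphorylase transcripts thus stood higher against synthase transcripts in every PTH sample than in any vehicle sample, and these are transcript levels, not enzyme activities.

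Ordered by level per kilobase in vehicle samples, the members ran from Pygb (70.7 ± 2.46) through Gyg (27.2 ± 1.36), Ppp1r3b (16.0 ± 1.39), Gys1 (10.1 ± 0.630), Gbe1 (6.40 ± 0.197), Ppp1r3c (5.12 ± 0.348), Ppp1r3d (2.58 ± 0.144) and Pygl (1.80 ± 0.233) to Pygm (0.822 ± 0.0414). No neighbors in that order overlapped between samples. With PTH, Ppp1r3c moved from the sixth place to the second (24.6 ± 4.73), after Pygb (102 ± 3.80) and before Gyg (16.4 ± 1.93). Gys1 (8.52 ± 0.246) and Ppp1r3b (8.204 ± 0.842) followed and overlapped. Gbe1 (5.64 ± 0.283) and Pygl (1.48 ± 0.210) came next. Pygm (1.02 ± 0.143) and Ppp1r3d (0.838 ± 0.170) were lowest and overlapped. With the median instead of the longest coding transcript length, both orders stayed as given, but Gys1 and Ppp1r3b then overlapped with vehicle and not with PTH. On that scale Ppp1r3c and Gyg also overlapped with PTH, so that the second place of Ppp1r3c was not separated from the next.

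In the wider pathway, 24 of the 27 listed genes were tested, and 4 were higher and 7 lower with PTH, with a median log2 fold change of -0.11. Their share of called genes was 45.8%, as over all tested genes. Both this share and the 4 higher genes include Ppp1r3g, which passed the filter only through the PTH samples. Stbd1, which encodes a glycogen-binding protein linked to the uptake of glycogen into lysosomes, was downregulated from 6.58 ± 0.409 to 2.95 ± 0.4725 CPM (adjusted p = 6.16e-05, log2 fold change -1.15). Gaa, which digests glycogen inside lysosomes, did not pass the test (adjusted p = 0.668, log2 fold change -0.05, SE 0.0935).

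For the catalytic subunits of the phosphatase itself, Ppp1cc was upregulated from 42.1 ± 1.77 to 89.7 ± 7.08 CPM (adjusted p = 1.24e-07, log2 fold change 1.09, SE 0.0705), while Ppp1ca (adjusted p = 0.355, log2 fold change 0.08) and Ppp1cb (0.08, adjusted p = 0.309) did not pass the test. Ppp1cc has near-identical copies of parts of its transcript in 4 other annotated genes, so that its counts are uncertain. Among the 5 phosphorylase kinase genes, Phkb was downregulated (adjusted p = 0.0369, log2 fold change -0.23) and the others did not pass. The treatments overlapped for Phkb, and 7 of 15 alternatives ended its call. Of the kinases that phosphorylate glycogen synthase, Gsk3b was downregulated (adjusted p = 0.00428, log2 fold change -0.26) and Gsk3a was upregulated (0.19, adjusted p = 0.0341), and 9 of 15 alternatives ended the call of Gsk3a. Gsk3a also shares up to 578 bases with 9130221H12Rik, annotated on the opposite strand.

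In the supply of UDP-glucose, Pgm1 was upregulated (adjusted p = 0.0265, log2 fold change 0.26) and Pgm2 downregulated (-0.35, adjusted p = 0.00639). Of 15 alternatives, 4 ended the call of Pgm1 (adjusted p between 0.0545 and 0.0891). The symbols of this pair of phosphoglucomutases were exchanged between annotation releases, and the release behind the table was not given in the sources used here, so that which enzyme each row stands for is uncertain. Pgm1 also shares up to 398 bases with Itgb3bp, annotated on the opposite strand. Ugp2, which makes UDP-glucose, was close to the threshold (adjusted p = 0.0524, log2 fold change -0.16, SE 0.0625). Slc37a4, the carrier of glucose 6-phosphate into the endoplasmic reticulum, was downregulated from 10.5 ± 1.01 to 6.37 ± 0.788 CPM (adjusted p = 4.44e-04, log2 fold change -0.72), whereas G6pc3 did not pass the test (0.06, adjusted p = 0.720) and G6pc, with at most 22 counts, was not tested. Both laforin (Epm2a, log2 fold change -0.29, adjusted p = 0.0696) and malin (Nhlrc1, -0.49, adjusted p = 0.169), which act on glycogen structure, did not pass. At the entry of glucose, only 3 picked genes were looked at, not the other glucose transporters and hexokinases. Slc2a3 (log2 fold change 2.10, adjusted p = 1.09e-07), Slc2a1 (1.16, adjusted p = 2.95e-06) and the hexokinase gene Hk2 (3.47, adjusted p = 3.43e-10) were upregulated in the same samples. The study had already reported the rise of Hk2 and Slc2a1 from these data.

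**Figure D3:**
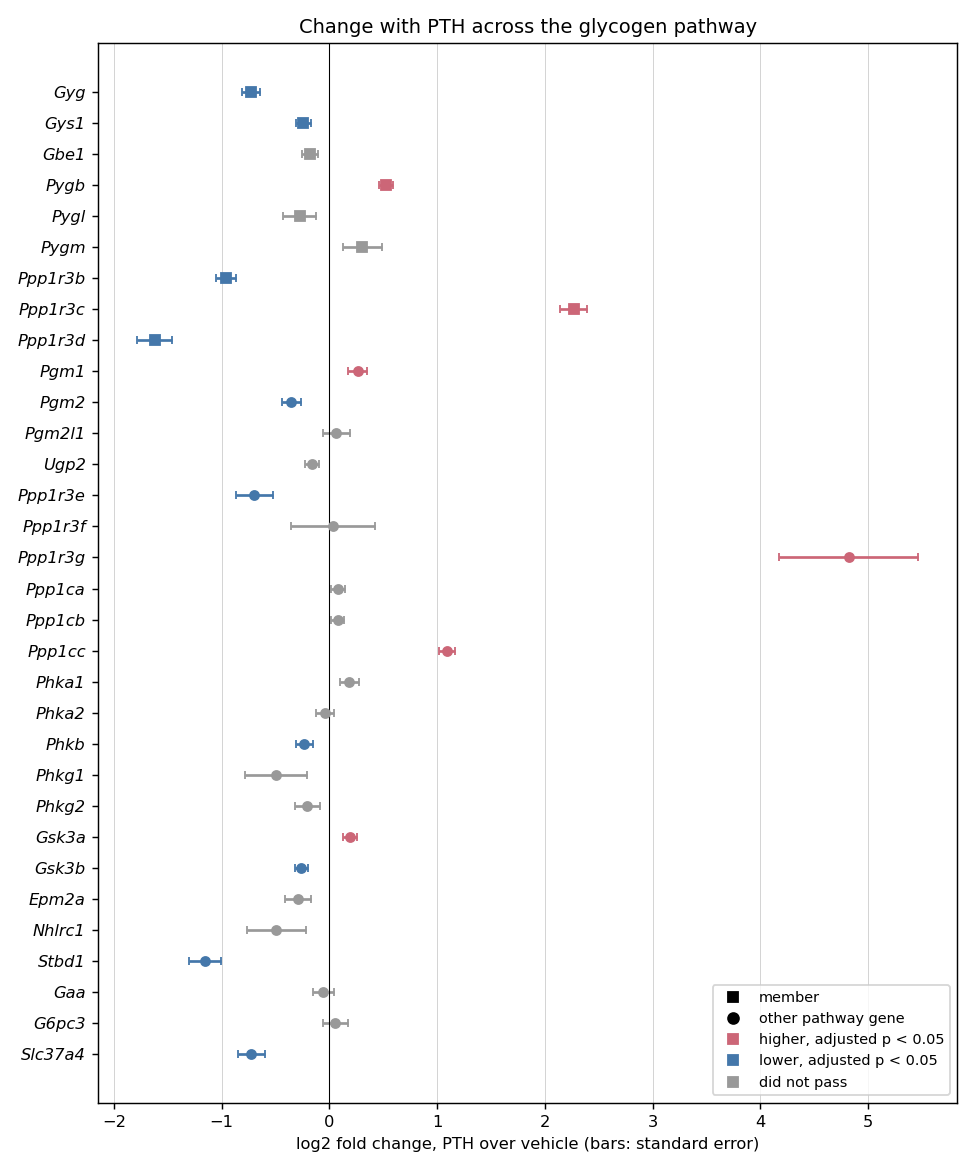
Log2 fold change (horizontal axis, PTH over vehicle, bars: standard error) of the 9 glycogen metabolism genes (squares) and of other tested genes of the pathway that are reported here (circles). Red points were higher and blue points lower with PTH at an adjusted p under 0.05, and gray points did not pass, with Ppp1r3d lowest (-1.62) and Ppp1r3g, whose fitted value rests on few vehicle counts, highest.

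The calls of the 9 genes were repeated on fewer samples. When any 1 of the 8 samples was dropped, the log2 fold change lay between 2.18 and 2.35 for Ppp1r3c, between -1.70 and -1.50 for Ppp1r3d, between -1.03 and -0.92 for Ppp1r3b, between -0.78 and -0.65 for Gyg and between 0.50 and 0.56 for Pygb, and these 5 genes passed the test in all 8 such fits. Gys1 also passed in all 8, with an adjusted p of between 0.0176 and 0.0472. Gbe1, Pygl and Pygm passed in none of them.

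**Figure D4:**
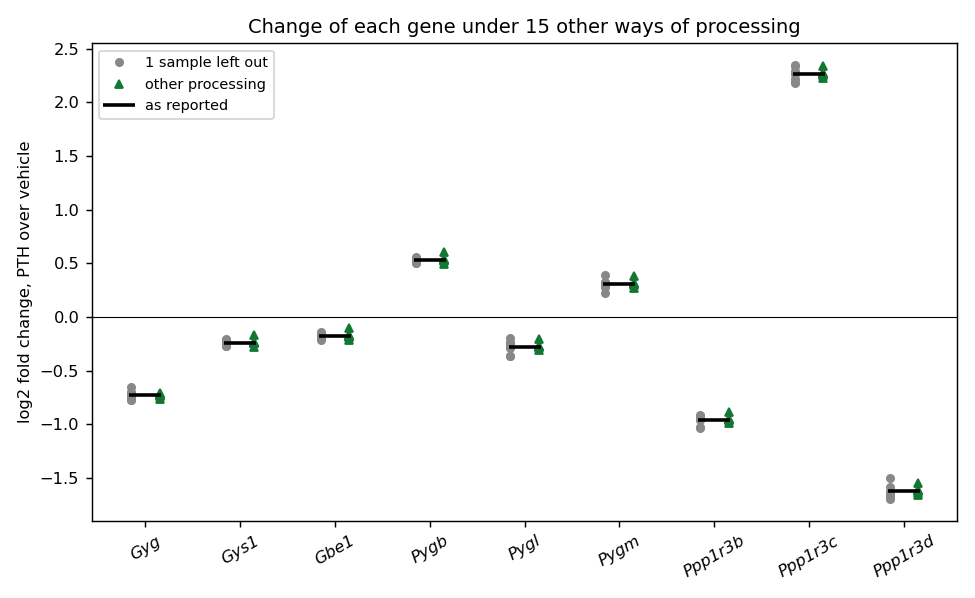
Log2 fold change (vertical axis, PTH over vehicle) of the 9 genes as reported (black bars), with 1 of the 8 samples left out (gray circles) and under 7 other ways of processing (green triangles). Each gene keeps its sign in all 15 alternatives.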

How the data were processed

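RNA was sequenced from 4 vehicle and 4 PTH samples. Per the labels and the study's methods, the authors aligned paired 150-base poly(A) reads to GRCm38 with HISAT2, assembled them with StringTie2 and derived read counts per assembled locus with its companion script. The submitters' processing notes also name DESeq2. The read length given to that script, the annotation release and the strand setting were not given in the sources used here. The deposited values are whole-number counts for 47706 rows, none of them normalized, and 2 rows without a symbol hold 0.00281% of the counts. Rows were matched to GENCODE M21 (46518 rows) by Ensembl identifier where they carried one, and otherwise by gene symbol. Of the glycogen metabolism genes, only Pygm carried an Ensembl identifier. The coordinates and transcript lengths of the others therefore rest on the match by symbol.

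Groups were taken from the labels. Rows with at least 10 counts in enough samples and 15 in total were kept (edgeR filterByExpr, 16736 rows), and PTH was compared with vehicle by TMM normalization and edgeR 4.0.16's quasi-likelihood test in R 4.3.3, with Benjamini-Hochberg adjustment over all 16736 rows and a threshold of 0.05. Single genes were also tested by an exact two-sided permutation test on log2(CPM + 0.1) in SciPy 1.17.1. A count of 0 was given a limit of 3 counts, which covers counting error only. The script was tested on simulated data with 200 changed genes. Replicates with the same number did not deviate together (correlations from -0.0409 to 0.0274). Pairs of samples within a treatment were also compared against counting noise over all tested genes. Chi-square per gene was 11.2 to 33.4 between vehicle samples and 20.9 to 119.6 between PTH samples, highest for PTH samples 1 and 2. Alternatives used DESeq2 1.42.0, other size factors, no filter, a replicate block, halved counts, sums by symbol, a transcript length offset and each sample left out. Near-identical sequence (at least 95% over 150 bases) was sought with blastn 2.17.0 after the data were seen.

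The 9 genes, the list of 27 further pathway genes and the marker lists (osteoblast, adipocyte, macrophage, skeletal muscle and endothelial) were chosen with earlier results of these data known. By rule, all 9 genes and every called gene of the 27 were named and the rest counted, except that 1 of the 27 is counted but not reported here. Genes of the 27 that were not called but are named were chosen after their values were seen.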

Additional observations from a re-analysis of the deposited data

Results flagged for a closer look

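None of the 9 glycogen metabolism genes had a sample that stood apart from the other 3 of its group by Dixon's test. Among the 27 further pathway genes and the 9 together, 7 of 72 groups of 4 samples did, where chance alone flags about 1 in 20. Pgm1 had 18.3 CPM in vehicle replicate 3, below the other vehicle samples. Ppp1cc had 44.7 CPM in vehicle replicate 3 and Slc37a4 had 12.0 CPM in vehicle replicate 4, both above the rest of their group. Ppp1ca had 250.4 CPM in PTH replicate 3, above the other PTH samples. The remaining flags rest on a few counts in genes that were not tested: Gys2 had 0.0446 CPM in vehicle replicate 1 and 0.156 CPM in PTH replicate 1, and Ppp1r3a had 0.0903 CPM in PTH replicate 2, with no count in the other samples of those groups.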

How the results depend on the processing

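Of 135 values of the 9 genes under 15 alternatives, 134 kept their direction and side of the threshold. The exception was Gys1 with the transcript length offset (log2 fold change -0.16, adjusted p = 0.0729), and the cause was not tested. With each sample left out, 2 of the 9 genes were higher and 4 lower with PTH in all 8 fits. Over all genes, 3412 to 4119 were then higher and 3259 to 3955 lower. Among the further pathway genes, the number higher with PTH was 2 without the filter on low counts, 5 with the length offset and 2 to 4 with a sample left out, and the number lower was 6 to 8 over the 15 alternatives. It was 2 without vehicle replicate 2, without vehicle replicate 3 or without PTH replicate 1, each of which ended the call of Pgm1, as did leaving out the filter. Calls were gained by Ugp2 (without the filter, without PTH replicate 1), Phka1 (length offset), and Phkg2 and Epm2a (without PTH replicate 2). Signs turned in 5 genes that had not passed the test. Ppp1r3f had -0.0030 without the filter and lay between -0.28 and 0.26 with a sample left out (-0.28 without vehicle replicate 3, -0.13 without PTH replicate 2). Pgm2l1 lay between -0.029 and 0.14, G6pc3 between -0.039 and 0.13, and Gaa between -0.14 and 0.029. With the length offset, Gaa had 0.023 and Phka2 0.035. The labels do not say whether samples with the same replicate number belong together. With a replicate block, 3571 genes were higher and 3432 lower, 2 and 4 of the 9 genes were called as before, and the further pathway genes had 3 higher and 6 lower. Depth limits Pygl, Pygm, Ppp1r3d, Ppp1r3e, Ppp1r3f, Ppp1r3g, Phkg1, Stbd1, Epm2a and Nhlrc1, which had at most 434 counts per sample. Phkg1, a phosphorylase kinase gene that did not pass the test, had 29 to 82.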
